A study of Arabidopsis thaliana and Brassica rapa with 28 samples.

Results

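The 10 genes described here encode the machinery of plant mitosis and cytokinesis: the cyclins CYCA1;1, CYCB1;1, CYCB1;2, CYCB1;4 and CYCB2;4, the B-type cyclin-dependent kinases CDKB1;1, CDKB2;1 and CDKB2;2, the syntaxin KNOLLE and the activator protein CDC20.1. They were taken by locus identifier, as a group proposed with earlier results of these data known, from the 33543 genes listed in the Arabidopsis tables. All 10 were marked as tested by the authors in every comparison. Across the 4 groups each was lower in seedlings that express the auxin repressor axr3-1 in the epidermis than in control seedlings, by a median log2 fold of -0.49 in white light and -0.40 in shade. None of these differences passed the authors' threshold in either light, and none of the 10 changed detectably with shade.

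The values come from 16 RNA-seq libraries of whole Arabidopsis thaliana seedlings at 5 days of age, 4 libraries per group. Seedlings were grown in continuous white light (W) and then spent 4 h in W or in shade, that is, light poor in red relative to far-red. Experimental seedlings are labelled CER6pro>>axr3-1::mCit: the stabilised Aux/IAA repressor encoded by axr3-1, fused to the fluorescent protein mCit, was expressed from the promoter of the epidermal wax gene CER6. Control seedlings were hemizygous for UAS::axr3-1::mCit, so they carry a copy of the axr3-1 construct too. The deposited tables hold 1 FPKM per gene and group (fragments scaled to transcript length and to the size of the library), pooled over the libraries by the authors, so the spread between libraries and the depth are unknown here. Whether replicate libraries come from seedlings grown apart is not stated in the labels, and p-values here cover only the variation among the libraries sequenced. AXR3, whose sequence the transgene shares, had 47.1 and 37.1 FPKM in control seedlings in W and shade and 113 and 112 FPKM in CER6pro>>axr3-1 seedlings. Between 19982 and 20097 genes reached 1 FPKM in a group.

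Mitotic cyclins bind cyclin-dependent kinases and set the timing of entry into mitosis. B-type kinases are found in plants, and their transcripts accumulate as cells approach division. KNOLLE acts in the fusion of vesicles that builds the cell plate between daughter cells, and CDC20.1 activates the anaphase-promoting complex, which marks mitotic cyclins for breakdown. Transcripts of these genes come mainly from dividing cells, which in a seedling lie in the root and shoot meristems, in young leaves and in the stomatal lineage. In RNA from whole seedlings, fewer dividing cells and less transcript per dividing cell cannot be told apart.

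Many genes of this phase carry MSA elements (mitosis-specific activator), which MYB3R transcription factors bind, and their promoters are shown because all 10 members lay below the control in both lights. The MSA core was searched as AACGG on both strands in the 250 bases before the gene start in RefSeq's TAIR10.1 annotation. It was present in 5 of the 10 members, and in 20.6% of 27443 nuclear protein-coding genes. Of the members 3 held 2 or more cores, against 3.62% of all these genes. The E2F motifs TTTCCCGC and TTTGGCGC, on both strands, were in none of the 10 windows and in 0.958% of all windows. The 80 bases that hold the most cores in each of the 5 members are given 5′ to 3′ on the strand of the gene, with cores in capitals. All 5 genes lie on the minus strand, at chr1:16777481-16777560, chr4:17624309-17624388, chr5:1861704-1861783, chr1:7294759-7294838 and chr1:2711001-2711080 of TAIR10.1 in the order shown.
CYCA1;1: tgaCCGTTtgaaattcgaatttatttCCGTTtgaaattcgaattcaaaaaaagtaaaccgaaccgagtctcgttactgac
CYCB1;1: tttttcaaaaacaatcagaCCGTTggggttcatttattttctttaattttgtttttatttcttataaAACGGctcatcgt
CYCB1;2: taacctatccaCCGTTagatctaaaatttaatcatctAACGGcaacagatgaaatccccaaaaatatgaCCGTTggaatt
CDKB2;2: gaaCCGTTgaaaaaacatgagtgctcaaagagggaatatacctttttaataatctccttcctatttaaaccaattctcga
KNOLLE: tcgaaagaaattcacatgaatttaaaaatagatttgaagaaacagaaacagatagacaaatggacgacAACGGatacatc
A match is a description of these letters. Members with a core and members without one were both lower in CER6pro>>axr3-1 seedlings.

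**Figure D1:**
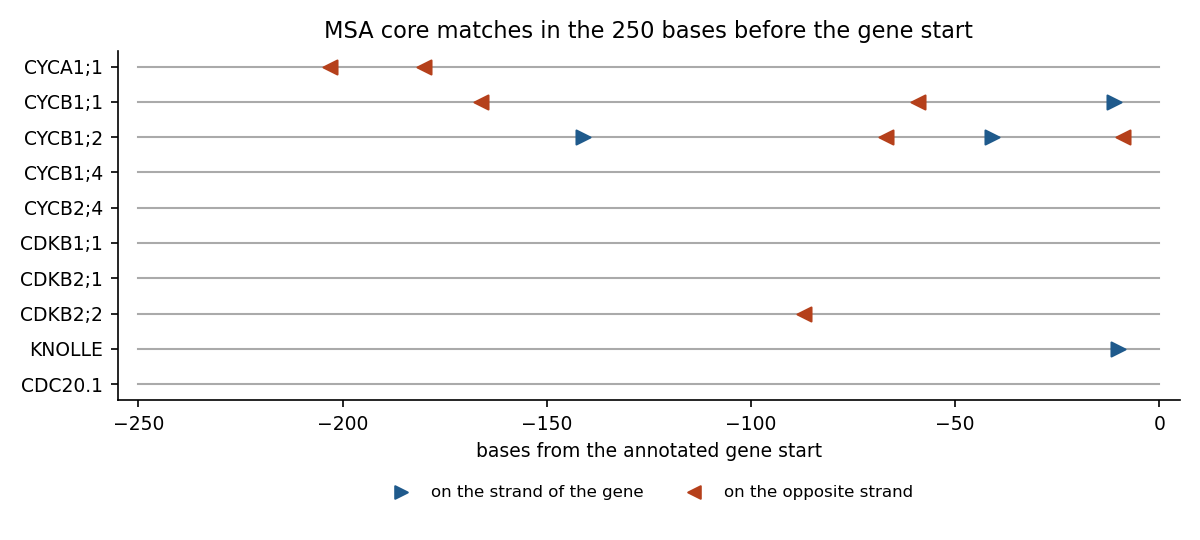
Positions of the AACGG core in the 250 bases before the annotated start of each member. The horizontal axis is the distance in bases from the gene start, each grey line is 1 gene and each triangle is 1 match, pointing right on the strand of the gene and left on the opposite strand. The counts of matches in the 5 genes that have any run from 1 to 4.

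Among the cyclins, the highest level was that of CYCB1;2 (AT5G06150, chromosome 5 from 1859279 to 1861703), at 18.4 FPKM in control seedlings in W and 18.2 in shade, against 11.8 and 13.8 in CER6pro>>axr3-1 seedlings. CYCB1;4 (AT2G26760, chromosome 2 from 11401118 to 11403433) had 11.1 FPKM in control seedlings in both lights and 7.42 in W and 9.20 in shade with axr3-1. CYCA1;1 (AT1G44110, chromosome 1 from 16774765 to 16777352) is an A-type cyclin gene of the mitotic phase. Its FPKM was 10.6 in W and 10.5 in shade in control seedlings, and 7.21 and 7.98 in CER6pro>>axr3-1 seedlings. In these 3 cyclin genes both control values lay above both axr3-1 values.

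CYCB2;4 (AT1G76310, chromosome 1 from 28627694 to 28630789) had 9.76 FPKM in W and 8.59 in shade in control seedlings, and 6.42 and 6.45 with axr3-1. CYCB1;1 (AT4G37490, chromosome 4 from 17621886 to 17624308) is widely used as a reporter of dividing cells. It had 8.60 and 9.25 FPKM in control seedlings and 6.13 and 6.43 in CER6pro>>axr3-1 seedlings. These 2 cyclin genes were the lowest members in every group. The authors' locus for AT4G37490 also holds 3 other entries of the tables, and its standard errors were the widest of the 10. The locus of the kinase gene AT1G76540 holds 1 other entry.

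The kinase genes act with mitotic cyclins, and their levels spanned much of the range of the 10 genes. CDKB2;1 (AT1G76540, chromosome 1 from 28720328 to 28722550) had 28.1 FPKM in W and 28.9 in shade in control seedlings, against 19.8 and 22.2 with axr3-1. CDKB2;2 (AT1G20930, chromosome 1 from 7292389 to 7294746) had 16.4 and 16.3 FPKM in control and 12.9 and 11.8 in CER6pro>>axr3-1 seedlings. CDKB1;1 (AT3G54180, chromosome 3 from 20059671 to 20061488) had the narrowest range, with 12.6 and 12.3 FPKM in control and 11.1 and 9.73 with axr3-1. For each kinase gene the control values were the higher ones in both lights.

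KNOLLE (AT1G08560, chromosome 1 from 2709525 to 2711000) was the most abundant member in every group. It had 39.4 FPKM in W and 41.7 in shade in control seedlings, and 28.4 and 30.1 in CER6pro>>axr3-1 seedlings. CDC20.1 (AT4G33270, chromosome 4 from 16044169 to 16046937) had 27.0 and 28.6 FPKM in control and 20.5 and 22.6 with axr3-1. CDC20.1 and its neighbour CDC20.2 are near copies: 31.4% of the 50-base windows of the CDC20.1 transcript also occur in CDC20.2, so the authors' counting could have split reads of 50 bp between them. The same share was 11.9% for CYCB1;2, with CYCB1;5 (AT1G34460), whose FPKM was 0.378 to 0.904. The other 8 members shared none of their windows with another protein-coding gene.

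All 10 members had both control values above both axr3-1 values, an order that 19.6% of 19903 genes tested in all 4 comparisons showed. Among the 8951 of these with a mean FPKM within the members' range, 7.61 to 34.9, the share was 18%. The members were measured in the same libraries, so 10 of 10, here and below, is not a count of independent observations. The order of the members by level was much the same in each group. KNOLLE came first, CDKB2;1 and CDC20.1 shared the next places and changed places between the genotypes, and CYCB1;1 and CYCB2;4 came last. Without values per library no spread is known for neighbours in this order, and differences between members were not tested. The summed FPKM of the 10 genes was 182 and 186 in control seedlings in W and shade and 132 and 140 with axr3-1.

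**Figure D2:**
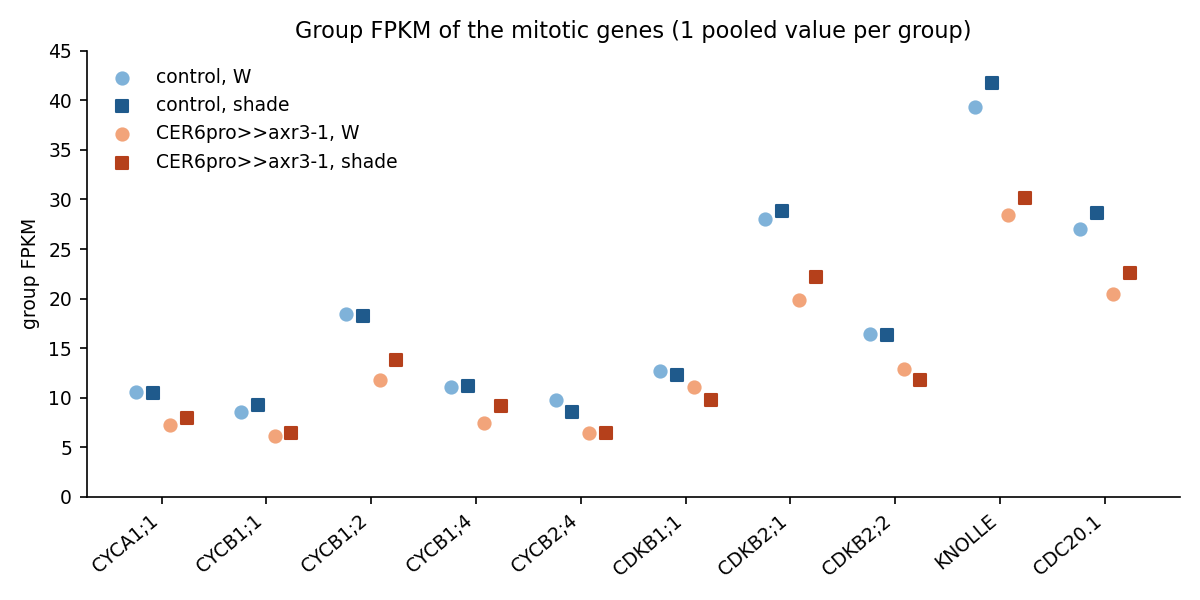
Group FPKM of the 10 members. The vertical axis is FPKM, circles are W and squares are shade, blue is control and orange is CER6pro>>axr3-1, with 1 pooled value per group and no error bar. For every gene the blue symbols lie above the orange ones, with KNOLLE highest at 28.4 to 41.7 FPKM.

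The comparison of CER6pro>>axr3-1 with control seedlings in W asked how the epidermal repressor changes transcript levels in the absence of shade. The 10 members had 0.640 to 0.878 times the control FPKM. The log2 folds ran from -0.64 ± 0.22 for CYCB1;2 (± is the standard error derived from the authors' statistic) to -0.19 ± 0.23 for CDKB1;1, with a median of -0.49. The median over all tested genes was 0.01. Of the 10 members, 0 passed q under 0.05 in the authors' deposited table, where 2.16% of 20470 tested genes were called and 0.699% were called lower. The smallest q was 0.109, for CYCB1;2 (a p of 0.00415 in the authors' deposited table). By Cuffdiff, the program the authors used to compare groups, 6 of 10 members were lower at an unadjusted p under 0.05, and 3.23% of all tested genes were. The 6 were KNOLLE, the kinase gene AT1G76540 and all cyclin genes but AT4G37490. CDC20.1 followed at a log2 fold of -0.40 ± 0.20 (a p of 0.0545 in the authors' deposited table). Of all tested genes 48.9% had a lower FPKM in CER6pro>>axr3-1 seedlings, against 10 of 10 members.

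The same comparison in shade used the other 8 libraries. The members had 0.695 to 0.825 times the control FPKM and a median log2 fold of -0.40, against 0.01 over all tested genes. CYCB1;1 had the lowest log2 fold, -0.53 ± 0.43, and CYCB1;4 the highest, -0.28 ± 0.23. KNOLLE, at -0.47 ± 0.19, had the smallest q, 0.377 in the authors' deposited table. Cuffdiff called 0 of 10 members, and 1.25% of 20321 tested genes, with 0.463% called lower. KNOLLE was the 1 member lower at an unadjusted p under 0.05 (0.0261 in the authors' deposited table), where 2.01% of tested genes were. It was also the 1 member of 10 lower at that level in both lights, where 0.904% of genes were. Again 10 of 10 members were lower, against 47.3% of tested genes, and 32.7% of genes were lower in both lights. The 95% interval of CDKB2;2, from -0.91 to -0.02, left out 0 although its deposited p was 0.065.

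**Figure D3:**
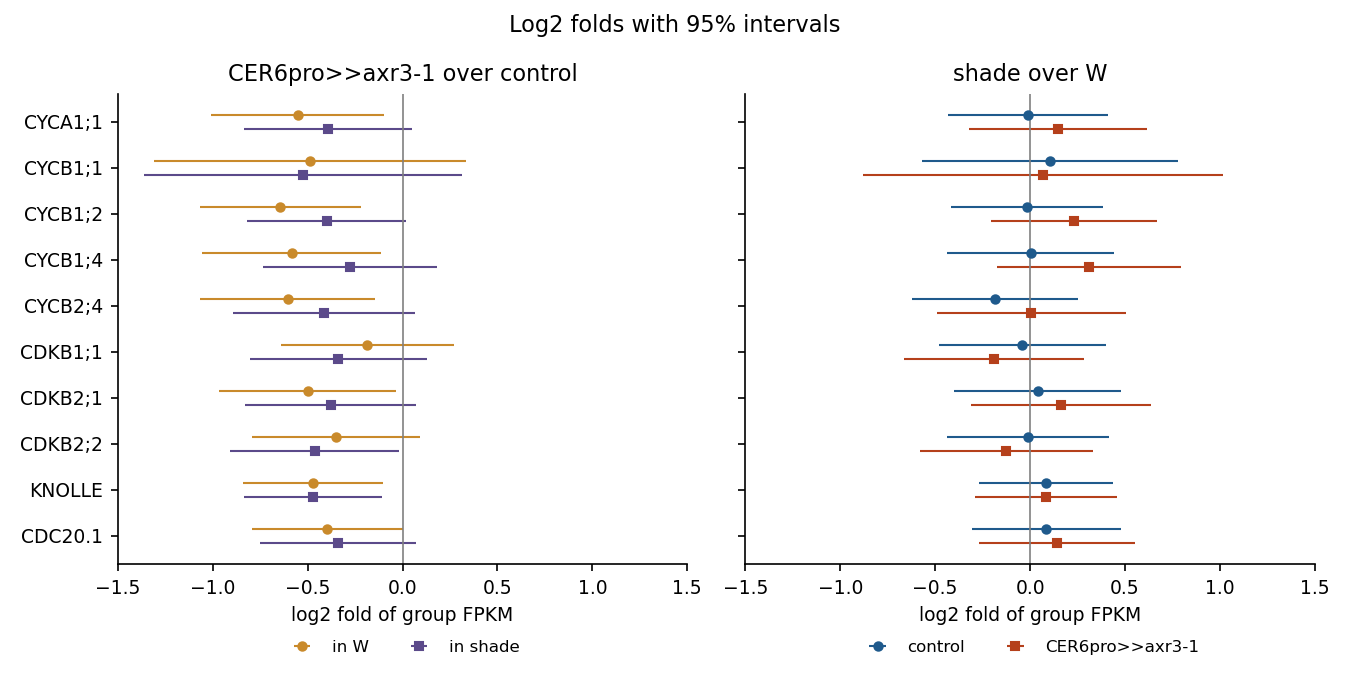
Log2 folds of the members with 95% intervals from the standard errors (horizontal axis, log2 fold of group FPKM). The left panel gives CER6pro>>axr3-1 over control in W (circles) and in shade (squares), and the right panel gives shade over W in control (circles) and in CER6pro>>axr3-1 seedlings (squares). On the left all points lie below 0 and 6 intervals in W and 2 in shade leave out 0, while on the right every interval holds 0.

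Because the comparisons in W and in shade share no library, the mean of each gene's log2 folds over the lights was also tested, over the 20021 genes that were tested in both and reached 1 FPKM in some group. This two-sided z test was chosen after the values in each light had been seen, and its q is the Benjamini-Hochberg adjusted value. It rests on a normal approximation, since without values per library no exact test can be run. KNOLLE was lower by this mean, at -0.47 ± 0.13 (q of 0.00907), as was CYCB1;2 at -0.52 ± 0.15 (q of 0.0140). With standard errors taken from the deposited p, the q of this z test was 0.0433 for KNOLLE and 0.0291 for CYCB1;2. CYCB2;4 also passed, at -0.51 ± 0.17 (q of 0.0478). Its call was lost with standard errors taken from the deposited p (q of 0.135) and with a pseudocount of 1 (q of 0.146). Thus 3 of 10 members were called lower by this mean, where 2.01% of all genes were called lower and 5.81% called in either direction. The other 7 members had means from -0.51 for CYCB1;1, with a standard error of 0.30, to -0.26 for CDKB1;1, and q from 0.0570 for CYCA1;1 to 0.647 for CDKB1;1.

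In control seedlings the comparison of shade with W asked whether 4 h of shade alters these transcripts. The log2 folds were -0.18 ± 0.22 for CYCB2;4 at the lowest and 0.11 ± 0.35 for CYCB1;1 at the highest, with a median of -0.00. KNOLLE had 0.08 ± 0.18, with a 95% interval from -0.27 to 0.44. Cuffdiff called 0 of 10 members, where 2.85% of 20325 tested genes were called, and 0 were at an unadjusted p under 0.05, where 5.09% of tested genes were so and lower and 3.48% so and higher. Of the members 5 were above and 5 below 0. The 95% intervals of the 10 genes together spanned -0.62 to 0.78, and changes inside them were not detectable.

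In CER6pro>>axr3-1 seedlings shade gave log2 folds from -0.19 ± 0.24 for CDKB1;1 to 0.31 ± 0.25 for CYCB1;4, with a median of 0.11 against 0.02 over all tested genes. Here 8 of 10 members were above 0, where 46.7% of tested genes had a lower FPKM in shade, and the exceptions were the kinase genes AT3G54180 and AT1G20930. Cuffdiff called 0 of 10, where 2.52% of 20441 tested genes were called. None was at an unadjusted p under 0.05, where 5.41% of tested genes were so and lower and 2.74% so and higher. The difference between the shade responses, CER6pro>>axr3-1 minus control, was tested per gene on the log2 folds. For the members it ran from -0.15 ± 0.33 for CDKB1;1 to 0.31 ± 0.33 for CYCB1;4, with a median of 0.09 against 0.01 over all genes. No member passed the two-sided z test (q of 1.00 for each), while 0.62% of 19989 genes, 124 in number, did. With standard errors taken from the deposited p, 2 genes passed. At an unadjusted p under 0.05 there were 0 of 10 members and 2.66% of genes. The 95% interval of the difference was narrowest for KNOLLE, from -0.52 to 0.52, and widest for CYCB1;1, from -1.20 to 1.13, and differences inside these intervals were not detectable.

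**Figure D4:**
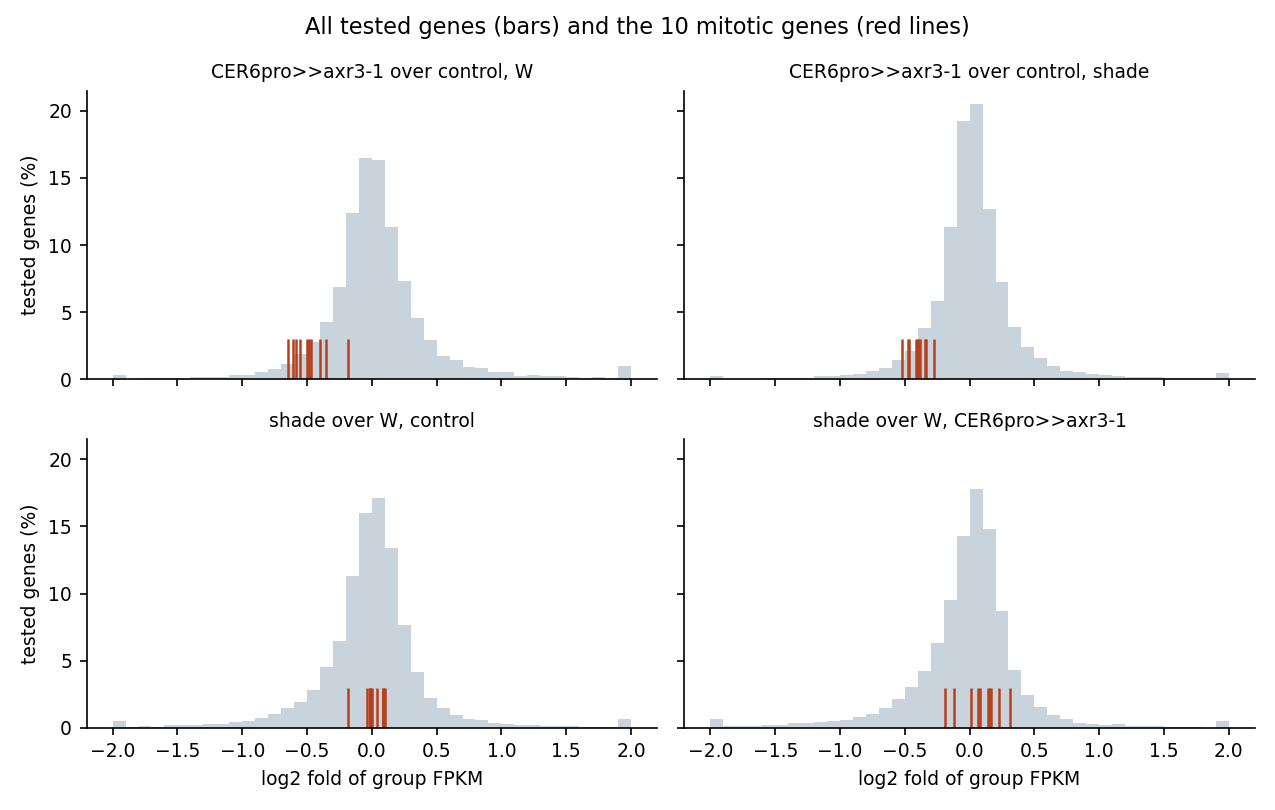
Distribution of log2 folds over all tested genes (grey bars, percent of tested genes per bin of 0.1) with the 10 members as red lines, in 4 panels by comparison. Folds beyond 2 in either direction are counted in the outermost bars. The red lines lie at -0.64 to -0.19 and -0.53 to -0.28 in the upper panels, which compare the genotypes, and around 0 in the lower panels, which compare shade with W.

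Other genes of the cell cycle were set beside the members in 7 lists of 99 genes written by role, of which 97 had a row in the tables used. Cuffdiff called 0 of them in each of the 4 comparisons. The numbers at an unadjusted p under 0.05 were 13 of 94 tested for CER6pro>>axr3-1 against control in W, 4 of 93 in shade, and 1 of 93 and 2 of 94 for shade against W in control and CER6pro>>axr3-1 seedlings. Over all tested genes the shares at that level were 8.09% and 4.95% between the genotypes in W and in shade, and 8.57% and 8.15% for shade against W in the same order. Counted in either direction, the lists held no larger share than all genes between the genotypes in shade and for both shade responses. The 13 genes in W and the 4 in shade were all lower in CER6pro>>axr3-1 seedlings. Of all tested genes 3.23% in W and 2.01% in shade were lower at that level. Between the genotypes 75 of 94 were below 0 in W (median -0.26) and 66 of 93 in shade (median -0.16).

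The 13 other A- and B-type cyclin and CDKB1;2 genes were all below 0 in W (median -0.30), and 11 of 13 were below 0 in shade (median -0.18). CYCA1;2, a cyclin gene of meiosis, had log2 folds of -0.49 ± 0.39 and -0.07 ± 0.31, and CYCB2;1 had -0.30 ± 0.35 and -0.44 ± 0.31. Among 21 genes of cytokinesis and the spindle, 19 were below 0 in W (median -0.35) and 17 in shade (median -0.21). HINKEL, a kinesin gene needed for cell plate expansion, had the smallest q of all 97 genes between the genotypes in W, 0.0612 in the authors' deposited table. Its FPKM was 13.8 and 14.7 in control and 8.85 and 10.4 in CER6pro>>axr3-1 seedlings in W and shade. TPX2, a spindle assembly gene, had 14.3 and 16.1 FPKM in control and log2 folds of -0.51 ± 0.23 and -0.54 ± 0.23 between the genotypes. By the mean of both lights 2 of 21 genes in that list passed: HINKEL at -0.57 ± 0.14 (q of 0.00250) and TPX2 at -0.52 ± 0.16 (q of 0.0292), both lower.

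Of 8 genes of anaphase-promoting complex activators and the spindle checkpoint, 6 were below 0 in each light, with medians of -0.18 in W and -0.20 in shade. The spindle checkpoint gene BUBR1 had -0.68 ± 0.28 and -0.29 ± 0.28, the activator gene CCS52B -0.42 ± 0.43 and -0.24 ± 0.43, and CDC20.2 -0.22 ± 0.25 and -0.12 ± 0.25. DNA replication genes were below 0 in 15 of 15 cases in W (median -0.37) and 15 of 16 in shade (median -0.27). MCM6, a subunit of the replicative helicase, was lower by the mean of both lights at -0.50 ± 0.16 (q of 0.0336). The other replication gene of 15 that passed was CDT1B, a replication licensing gene named after its values were seen, at -0.52 ± 0.17 (q of 0.0368). Its p in the authors' deposited table was 0.0948 in W and 0.0439 in shade. For HINKEL, TPX2, MCM6 and CDT1B no q with standard errors taken from the deposited p is given, so their passes may depend on the standard error used. RNR2A, a ribonucleotide reductase gene, had -0.30 ± 0.22 in W and -0.32 ± 0.24 in shade.

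The G1 and G1-to-S list had 13 of 17 genes below 0 in W (median -0.15) and 9 of 17 in shade (median -0.03). In each light 1 of the 17 was lower at an unadjusted p under 0.05, where 3.23% of tested genes in W and 2.01% in shade were. Its D-type cyclin genes CYCD4;1 and CYCD4;2 had log2 folds of -0.32 ± 1.36 and -0.84 ± 0.46 in W. Both were of low level, at 0.993 to 3.30 FPKM over the groups. In the list of inhibitors of cyclin-dependent kinases and WEE1, 9 of 14 were above 0 in W (median 0.22) and 7 of 12 in shade (median 0.06). Over all tested genes 48.9% had a lower FPKM in W and 47.3% in shade. No gene of this list was at an unadjusted p under 0.05 in either light. WEE1 itself was lower in both, at 2.95 and 2.52 FPKM in control in W and shade and 1.92 and 1.85 with axr3-1. The inhibitor genes SMR4 and SMR5 had 0.948 to 2.18 and 1.37 to 3.58 FPKM, and the authors did not mark them as tested between the genotypes in shade. Of the MYB3R and related regulators 4 of 6 were below 0 in W (median -0.06) and 3 of 6 in shade (median -0.00). MYB3R4, which activates mitotic genes through MSA elements, had -0.57 ± 0.24 and -0.25 ± 0.24, and AT1G63100 of the same list had -0.48 ± 0.45 and -0.24 ± 0.45. By the mean of both lights 0 genes of these 3 lists and of the cyclin list passed. Differences between the lists were not tested.

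**Figure D5:**
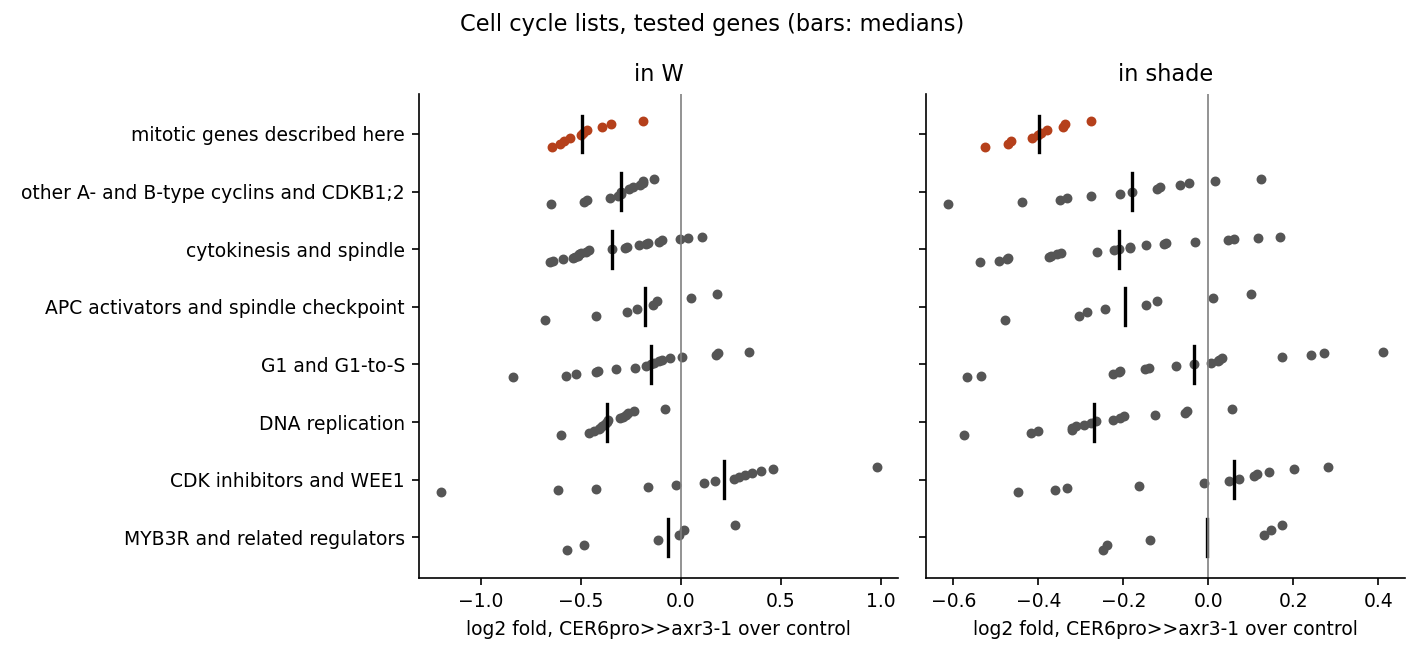
Log2 fold of CER6pro>>axr3-1 over control in W (left) and in shade (right), with a horizontal axis for each panel. Each dot is a tested gene, rows are lists, black bars are medians and the 10 members are red. The medians of the members are -0.49 and -0.40, those of DNA replication -0.37 and -0.27, and that of the inhibitors in W is 0.22.

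Markers of tissues that hold dividing cells are given beside these values, and their part in the result was not tested. The 5 root meristem markers had summed levels of 47.5 and 47.8 FPKM in control seedlings in W and shade and 51.7 and 49.7 in CER6pro>>axr3-1 seedlings, with medians of log2 folds between the genotypes of -0.04 in W and 0.11 in shade. WOX5, of the root stem cell niche, had -0.15 ± 0.36 and 0.25 ± 0.42 and PLT1 -0.11 ± 0.31 and 0.15 ± 0.31. The 6 shoot apex and young leaf markers summed to 63.4 and 57.0 FPKM in control and 57.4 and 53.9 with axr3-1. The stem cell markers WUS and CLV3 were under 1 FPKM in every group, with WUS listed at 0 in control seedlings in W. STM had 0.43 ± 0.36 in W and 0.11 ± 0.37 in shade, while ANT, a growth regulator of young organs, had -0.48 ± 0.21 and -0.25 ± 0.23. The 7 stomatal lineage markers were all below 0 in W (median -0.26), 5 of 7 were in shade (median -0.24), and their sum was 53.7 and 45.5 FPKM in control and 42.2 and 41.9 with axr3-1. MUTE had -0.26 ± 0.38 and -0.79 ± 0.44 and EPF2 -0.26 ± 0.29 and 0.39 ± 0.32. Of the 3 lateral root founder markers only LBD16 reached 1 FPKM, with 3.40 and 4.16 in control and 2.85 and 3.18 with axr3-1.

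Markers of the epidermis, where the transgene was driven, were below 0 in W in 3 of 3 cases and in shade in 2 of 3, and their part in the result was not tested. They summed to 715 and 624 FPKM in control and to 412 and 513 in CER6pro>>axr3-1 seedlings. The protoderm gene PDF1 fell by 1.03 ± 0.27 on the log2 scale in W (q = 0.00793 in the authors' deposited table) and had -0.47 ± 0.30 in shade, where it was not called (q = 0.756). PDF1 was the 1 marker called in any of the 4 comparisons that change genotype or light alone. The green leaf markers RBCS1A and RCA had log2 folds between the genotypes of 0.14 to 0.32. CAB1 was listed at 12165 FPKM in control seedlings in W and at 0 in the other 3 groups. The authors did not mark it as tested in any of the 4 comparisons, and these zeros are not read as absence of its transcript. The root hair markers EXP7 and COBL9 had 13.2 to 18.5 and 6.96 to 9.71 FPKM, so markers of shoots and roots were detected in each group.

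The genes most like the members were those whose log2 FPKM, centred over the 4 groups, had the smallest Euclidean distance from the median profile of the members. That profile was 0.20, 0.23, -0.28 and -0.18 for control in W and shade and CER6pro>>axr3-1 in W and shade. Among 19149 genes outside the lists that reached 1 FPKM in each group, the nearest were AT3G03130, AT3G51360, AT4G29360, AT2G38370 and the tubulin gene TUB5, at distances from 0.022 to 0.044. TUB5 had 120 and 123 FPKM in control and 88.6 and 94.9 in CER6pro>>axr3-1 seedlings. With only 4 values per gene, 1299 genes lay nearer than the farthest member, so likeness in this measure is common.

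The tables that change genotype and light together share their groups with the comparisons above and add no separate measurement. In CER6pro>>axr3-1 seedlings in shade against control seedlings in W, all 10 members were lower, with a median log2 fold of -0.40. Cuffdiff called 0 of them, where 4.75% of 20423 tested genes were called. At an unadjusted p under 0.05, 1 member was lower, as were 6.68% of tested genes. In control seedlings in shade against CER6pro>>axr3-1 seedlings in W, all 10 were higher, with a median of 0.54. Cuffdiff again called 0, where 3.94% of 20458 tested genes were called, and 6 members were higher at an unadjusted p under 0.05, as were 3.93% of tested genes. Of the other cell cycle genes, HINKEL was called higher in this table, at 0.73 ± 0.20 (q = 0.0195 in the authors' deposited table). The kinase inhibitor gene SMR1, named after its values were seen, was called lower there, from 54.4 to 30.9 FPKM (q = 0.0160 in the authors' deposited table), and was not called in the 4 comparisons that change genotype or light alone. Of the markers, PDF1 was called higher there, from 202 to 394 FPKM (q = 0.00793 in the authors' deposited table). ANT was called lower in CER6pro>>axr3-1 seedlings in shade against control seedlings in W, from 17.4 to 10.2 FPKM (q = 0.0160 in the authors' deposited table).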

How the data were processed

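The 10 genes and the lists beside them were chosen with earlier results of these data known. Reads were processed with CASAVA 1.8.2, TopHat2 2.0.9, Bowtie2 2.1.0, Cufflinks and Cuffdiff on the TAIR10 build, per the submitters' processing notes, and libraries were stranded, with single-end reads of 50 bp, per the labels. The authors deposited FPKM values as 1 value per group and the statistic of each gene as a score, and each p-value and q-value is the one the authors deposited unless a z test is named. Only the 6 Arabidopsis tables were used, because the Brassica tables do not pair their identifiers with these genes.

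Log2 folds were computed as ratios of group FPKM without a pseudocount. Each standard error is the absolute log2 fold over the authors' statistic, multiplied by a factor per table (0.558 to 0.564) that brings the statistic to the scale of a normal deviate, found as a median over genes with p from 0.001 to 0.5. It can be too small for genes of low FPKM, and also for members of higher FPKM such as KNOLLE. With standard errors taken from the deposited p, the q of KNOLLE in the z test of the mean over the lights went from 0.00907 to 0.0433. That of CDKB2;1 went the other way, from 0.110 to 0.0958, as did that of CYCB1;1, from 0.568 to 0.547. The intervals and z tests that rest on these standard errors share this limit. A gene was called at q under 0.05 among tested genes. Differences of shade responses and means over the lights were tested with two-sided z tests (Python 3.11.15, SciPy 1.17.1). Benjamini-Hochberg adjustment was over all tested genes that reached 1 FPKM in some group. Only the test of differences was also run on simulated data. The simulation drew normal folds with these standard errors taken as true, so it cannot show whether they hold for the real data.

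Named genes were all 10 members, CDC20.2, every gene of each list called in the 4 comparisons of genotype or light alone, or else the 2 that reached 1 FPKM with the largest mean size of log2 fold, and the 5 nearest in pattern. CYCA2;4 and SMR7 were not analysed here. Sequences and gene positions are RefSeq's, build TAIR10.1, in which all 26043 nuclear genes compared overlapped the authors' locus on the same chromosome. The depth per library is unknown.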

Additional observations from a re-analysis of the deposited data

How the results depend on the processing

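No member was called in any of the 4 comparisons at q under 0.01, with Benjamini-Hochberg adjustment within a table, with z recomputed from the fold and its standard error, or among genes that reached 1 FPKM in each group compared, and no member passed for the difference of shade responses under its 5 alternatives. The medians of the members kept their direction with a pseudocount of 1 (-0.47 in W and -0.36 in shade between the genotypes) and centred on all genes (-0.50 and -0.41). For the mean of both lights KNOLLE alone passed at an adjusted p under 0.01, so the count was 1. It was 2 with standard errors from the deposited p or a pseudocount of 1 and 4 when centred. Over all genes, the calls changed by more than 1.5 times with z recomputed (905 for shade in control, 839 for shade in CER6pro>>axr3-1, 777 between the genotypes in W and 476 in shade), and at q under 0.01 (322, 266 and 157 for the last 3). The difference of shade responses passed for 2 genes with standard errors from the deposited p, which cannot go below its smallest value. No paired analysis was possible because the tables hold 1 value per group, and for the same reason no library could be left out.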
